A study of Danio rerio with 20 samples.

Results

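Oxidative phosphorylation genes were taken as every row of the expression table whose zebrafish symbol begins with the stem of a respiratory chain or ATP synthase gene (ndufa, ndufb, ndufc, ndufs, ndufv, sdh, uqcr, cox4, cox5, cox6, cox7, cox8 or atp5) or of a mitochondrially encoded subunit (mt-nd, mt-co, mt-cyb or mt-atp). The rule found 121 of 32057 gene IDs. Of these, 13 are encoded in the mitochondrial genome and 108 in the nucleus. The nuclear genes comprise 94 genes for subunits, 12 for assembly factors (8 named ndufaf and 4 named sdhaf) and 2 for inhibitors of ATP synthase. Genes were sorted by symbol, with cox7a2l counted among the subunits and the ndufa4 genes placed in complex IV. Symbols that several IDs share are given with the ID.

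The respiratory chain passes electrons from NADH (complex I) and from succinate (complex II) through complex III to oxygen at complex IV, and complexes I, III and IV pump protons across the inner mitochondrial membrane. ATP synthase (complex V) uses that gradient to make ATP. Complexes I, III, IV and V are built from subunits of both genomes, so their assembly needs transcripts made in the nucleus and in the organelle, whereas complex II is encoded wholly in the nucleus. The early fish embryo inherits its mitochondria and many transcripts from the egg.

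RNA was measured in whole zebrafish embryos by sequencing of poly(A)-selected libraries, each from a pool of about 50 embryos. MPNP pools were the un-genotyped offspring of mdm2+/- parents that also lacked puma, noxa and p21 (pnp-/-), so that each pool mixed mdm2-/-, mdm2+/- and mdm2+/+ embryos. PNP pools were offspring of pnp-/- parents with no mdm2 mutation, and every embryo of both pool types was therefore puma-/-, noxa-/- and p21-/-. Pools were collected at 8, 10, 12, 14 and 16 hours post fertilization (hpf), with 2 libraries per pool type and stage and 20 in all. The series asked how transcripts respond when Mdm2, which holds the tumour suppressor p53 down, is missing from some of the embryos. Embryos without mdm2 were expected to be a minority of each MPNP pool, which dilutes any difference between the pool types.

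Values are TPM (transcripts scaled to a fixed total), which are shares of each library's transcripts per unit of length. The number of reads behind a value is unknown. The mdm2 transcript, counted whether or not it carried the mutation, ranged from 61.2 to 125 TPM over PNP libraries and from 74.1 to 325 TPM over MPNP libraries, and it was higher in MPNP in the average over stages by 0.88 ± 0.11 on the log2 scale (SE, limma, adjusted p = 0.000232). Markers of the whole embryo followed stage: the endoderm factor gene sox32 averaged 138 TPM at 8 hpf and 0.128 TPM at 16 hpf, and the hatching enzyme gene he1.1 averaged 0.34 and 674 TPM. A whole-embryo library cannot tell fewer cells of a type from less RNA per cell, nor less of a transcript from more of all others.

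The mitochondrially encoded transcripts were the most abundant of the set. Averaged over the 20 libraries, mt-co2 and mt-co1, which encode core subunits of cytochrome c oxidase (complex IV), stood at 4294 and 3994 TPM, and mt-co3, a further core subunit, at 2236 TPM. The transcript of cytochrome b (mt-cyb), the catalytic membrane subunit of complex III, averaged 1503 TPM. The most abundant nuclear transcripts were those of cox7c (903 TPM), a small complex IV subunit, atp5mc3b (698 TPM), a gene for subunit c of the rotor ring of ATP synthase, and cox5b (ENSDARG00000015978, 667 TPM), another complex IV subunit. Among the complexes, the nuclear transcripts of complex II were lowest. At 16 hpf the median gene stood at 33.9 TPM in complex II, at 117 TPM in complex I, at 135 TPM in complex III, at 137 TPM in complex IV and at 309 TPM in complex V, all per unit of transcript length. These medians include copies near 0, which lower them. Only 17 of 25 genes of complex IV and 4 of 5 of complex II reached 1 TPM, against every gene of the other complexes.

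The other 10 nuclear genes averaged less than 1 TPM and were not tested. They were mostly minor relatives of an abundant gene: sdhd (ENSDARG00000055712), cox4i1l, cox5b (ENSDARG00000068738), cox6a1 (ENSDARG00000054588), cox6b1, cox7a1, cox8b, ndufa4b, ndufa4l2 and ndufa4l2b. The last of these was listed at 0 in all 20 libraries. The remaining 111 genes, 98 nuclear and all 13 mitochondrial, had a mean TPM of at least 1 and entered the tests.

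A pair of genes had values that could not be read as levels. The transcript of mt-atp8, a membrane subunit of ATP synthase, was listed at 0 in 16 of 20 libraries, while the others gave 112 TPM (PNP 10 hpf replicate 2), 444 TPM (MPNP 12 hpf replicate 2), 628 TPM (PNP 12 hpf replicate 2) and 560 TPM (MPNP 14 hpf replicate 2). The short complex I gene ndufb1 was listed at 0 in 13 libraries, including every library of 8 and 10 hpf, and otherwise between 17.1 and 136 TPM. In the gene table at hand, which is of another assembly (GRCz12tu), the span of mt-atp8 overlaps that of mt-atp6, and the spans of mt-atp6 and mt-co3, of mt-nd4l and mt-nd4 and of mt-nd5 and mt-nd6 also overlap. No source used here says how reads in the overlaps were assigned, so values within these pairs are uncertain. Neither mt-atp8 nor ndufb1 is given a fold change.

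Between 8 and 16 hpf the balance of summed TPM shifted from the mitochondrial to the nuclear genes. The 13 mitochondrially encoded genes together took 2.57% ± 0.60 of all TPM at 8 hpf (SD, n = 4 libraries of both pool types), 1.93% ± 0.37 at 10 hpf, 1.65% ± 0.42 at 12 hpf, 1.52% ± 0.28 at 14 hpf and 1.55% ± 0.39 at 16 hpf. The 94 nuclear subunit genes took 1.18% ± 0.13, 1.34% ± 0.11, 1.59% ± 0.14, 1.76% ± 0.11 and 1.89% ± 0.08. The nuclear sum at 16 hpf, from 1.82% to 1.96%, lay wholly above the sum at 8 hpf, from 1.05% to 1.31%. The mitochondrial sums overlapped between these stages, since MPNP 16 hpf replicate 2 (2.03%) was above MPNP 8 hpf replicate 1 (1.98%).

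**Figure D1:**
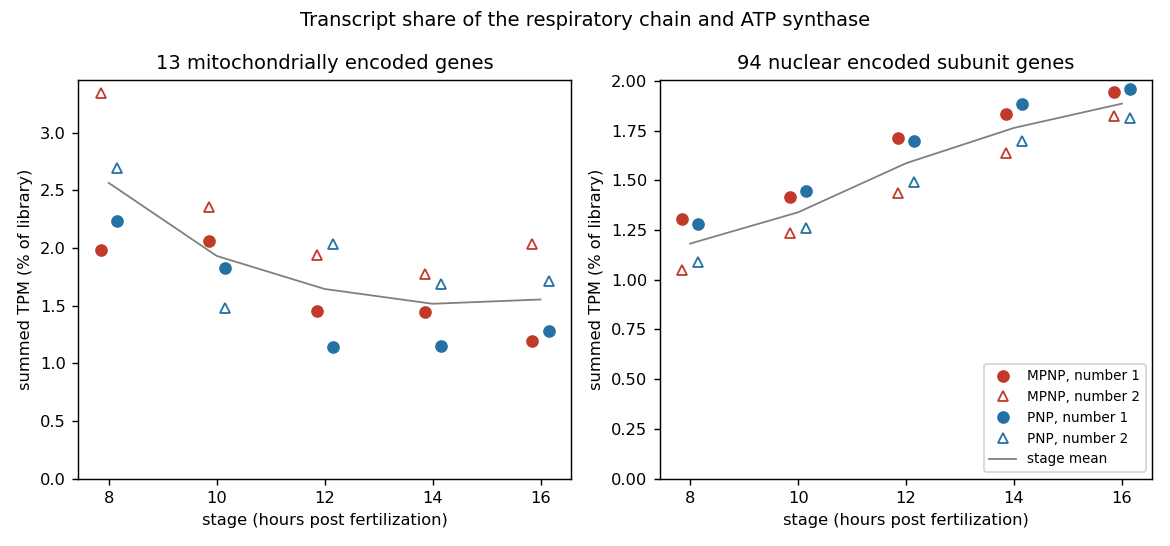
Summed TPM of the 13 mitochondrially encoded genes (left) and of the 94 nuclear encoded subunit genes (right) as a percentage of each library, by stage in hours post fertilization. Each symbol is 1 library (red, MPNP; blue, PNP; filled circle, number 1; open triangle, number 2) and the line joins stage means: the nuclear sum climbs from 1.18% to 1.89% while the mitochondrial sum falls from 2.57% to 1.55%.

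As a ratio, mitochondrial to nuclear transcripts stood at 1.52, 3.19, 1.74 and 2.47 in the 8 hpf libraries (MPNP replicates 1 and 2, then PNP replicates 1 and 2). At 16 hpf the same order gave 0.615, 1.11, 0.653 and 0.942. In all 8 hpf libraries the summed TPM of the mitochondrial genes thus exceeded that of the nuclear subunit genes, and in 3 of 4 libraries at 16 hpf it was lower. The libraries were poly(A)-selected, and how far the selection captured the transcripts of each genome was not tested. The ratio is therefore one of captured transcripts. On the log2 scale the mean ratio fell by 1.41 between the stages, beside a pooled SD within groups of 0.49. No test is given for this ratio, which is a score over genes chosen with results of these data known.

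Gene by gene, the mitochondrial transcripts that fell between 8 and 16 hpf (mean of both pool types, limma with p adjusted over all 14774 genes) were 6 of 13, and none rose. Over all genes tested, 31.6% fell and 44.4% rose. The 12 genes other than mt-atp8 had negative values with a median of -0.61 on the log2(TPM + 1) scale, where the median gene moved by 0.20. Only 3 of 13 were lower in all 16 hpf libraries than in any 8 hpf library, or 23.1%, beside 29.1% of all genes. In MPNP and PNP pools taken separately 2 of 13 were called lower in both, or 15.4%, beside 24% of all genes. The 6 were mt-co1, mt-cyb, mt-co2, mt-co3, mt-nd2 and mt-nd4l, the last 2 encoding membrane subunits of complex I. This count rests on few libraries: it was 2 without MPNP 16 hpf replicate 1 or without MPNP 8 hpf replicate 2, and 3 without PNP 16 hpf replicate 1 or without PNP 8 hpf replicate 2. With the replicate number as a block, 10 of 13 fell (36.7% of all genes fell and 49.1% rose in that fit).

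The steepest fall was that of mt-co1. Its 8 hpf libraries held 4698, 7937, 5404 and 6570 TPM (MPNP replicates 1 and 2, then PNP replicates 1 and 2), and its 16 hpf libraries held 2324, 3771, 2304 and 3184 TPM in that order. The stages did not overlap. The change was -1.09 ± 0.25 on the log2 scale (SE, adjusted p = 0.00121), or -1.29 relative to the median gene. The mt-cyb transcript fell from 1857, 2904, 2128 and 2277 TPM to 1027, 1422, 989 and 1267 TPM, again without overlap (-0.96 ± 0.21, adjusted p = 0.000906). The remaining called changes were -0.76 for mt-co2, -0.69 for mt-co3, -0.57 for mt-nd4l and -0.54 for mt-nd2.

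The complex I transcripts of mt-nd4 (-0.64), mt-nd5 (-0.54), mt-nd3 (-0.38), mt-nd1 (-0.23) and mt-nd6 (-0.80), and that of mt-atp6 (-0.28), did not pass the test. With the replicate block, mt-nd3, mt-nd4, mt-nd5 and mt-nd6 did, at adjusted p from 0.000216 to 0.00481. The transcripts of the same organelle also shifted against each other. In the 8 hpf libraries the ratio of mt-co1 to mt-co2 lay between 0.994 and 1.05, and in the 16 hpf libraries between 0.72 and 0.892. This ratio was picked out after its values were seen and carries no test.

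Nuclear genes moved the other way. From 8 to 16 hpf 75 of 98 rose and 3 fell, with a median of 0.89 where the median gene moved by 0.20. The share that rose, 76.5%, stands beside 44.4% of all genes. The most abundant nuclear gene, cox7c, did not rise, with means of 941 TPM at 8 hpf and 884 TPM at 16 hpf. In the libraries of both stages 72 of 98 nuclear genes were higher in all 16 hpf libraries than in any 8 hpf library, beside 41% of all genes, and 2 were lower without overlap, beside 29.1%. The rise was called in MPNP pools and in PNP pools taken separately for 61 of 98 genes, or 62.2%, beside 35.1% of all genes. When the values were rescaled by trimmed means of log ratios (TMM), which lowered the change of the median gene from 0.20 to 0.02, 60 nuclear genes rose (39.3% of all genes) and 4 fell (38.3% of all genes), and 9 mitochondrial genes fell. The nuclear median relative to all genes was 0.70 as deposited and 0.68 after that rescaling.

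**Figure D2:**
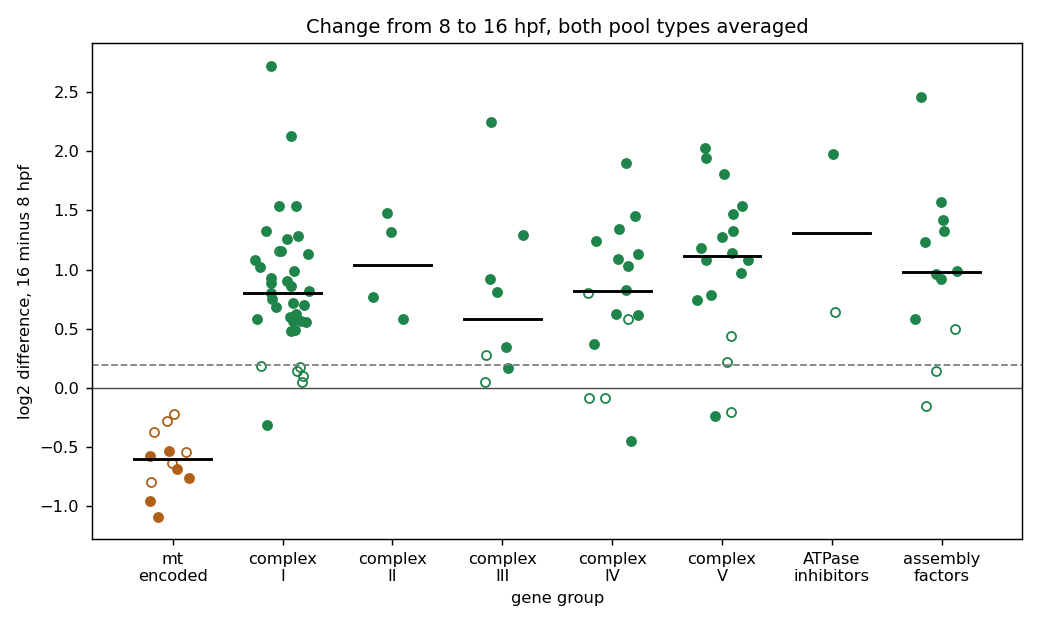
Log2 difference between 16 and 8 hpf (mean of both pool types) for each tested gene except mt-atp8 and ndufb1, by place of encoding and complex. Filled circles passed the test at an adjusted p under 0.05, short bars are group medians, and the dashed line is the median over all 14774 genes (0.20): nearly all nuclear genes lie above it and all 12 mitochondrial genes below 0.

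Each complex had nuclear genes called higher, and the counts are to be read beside the 44.4% of all genes that rose and the 31.6% that fell. In complex I, which oxidises NADH, 30 of 38 nuclear subunit genes rose and 1 fell (median 0.81). In complex II, succinate dehydrogenase, 4 of 4 rose (median 1.04). In complex III 6 of 8 rose (median 0.58), in complex IV 11 of 16 rose and 1 fell (median 0.82), and in complex V 14 of 18 rose and 1 fell (median 1.11). In MPNP and PNP pools taken separately, 3 of 8 complex III genes were called higher in both, or 37.5%, beside 35.1% of all genes. That share was 63.2% in complex I, 100% in complex II, 50% in complex IV and 72.2% in complex V. Of the assembly factors, which help to put complexes I and II together, 9 of 12 rose (median 0.98). Examples of rises on the path of the electrons, picked after their values were seen, were ndufv1, the NADH-binding subunit (1.53 ± 0.07), ndufs1, an iron-sulphur subunit (1.25 ± 0.07), and sdhd (ENSDARG00000030139), a membrane anchor of complex II (1.32 ± 0.15). Not all subunits on that path rose: mt-cyb and mt-co1 fell, as given above.

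The largest rise was that of ndufb10, an accessory subunit of the membrane arm of complex I. Its 8 hpf libraries held 19.4, 19.9, 13 and 21.1 TPM, and its 16 hpf libraries held 96.9, 163, 106 and 145 TPM. The change was 2.72 ± 0.23 (adjusted p = 1.55e-07). The complex I subunit gene ndufs4, in which mutations cause Leigh syndrome in humans, rose from 27.3, 20.7, 21.9 and 18.4 TPM to 108, 95, 112 and 84.3 TPM (2.13 ± 0.19, adjusted p = 1.69e-07). Neither gene's stages overlapped. The assembly factor gene ndufaf8 was near or below 1 TPM in 3 of 4 libraries at 8 hpf (0.7, 0, 2.64 and 0.44 TPM) and between 6.6 and 10.6 TPM at 16 hpf (2.46 ± 0.26, adjusted p = 1.21e-06).

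In complex V, atp5pd, a subunit of the peripheral stalk that holds the catalytic head still, rose from 24, 19, 23.9 and 22 TPM to 92.3, 92.8, 92.2 and 97.4 TPM (2.03 ± 0.08, adjusted p = 3.69e-11). Its libraries were almost level within a stage. The membrane subunit gene atp5mg rose from between 145 and 178 TPM to between 603 and 654 TPM (1.94 ± 0.08). Other peripheral stalk genes rose as well: atp5po by 1.81 ± 0.24, atp5pb by 1.28 ± 0.12 and atp5pf by 1.18 ± 0.09. In the catalytic head the genes for the alpha and gamma subunits, atp5f1a and atp5f1c, rose by 0.79 ± 0.07 and 1.54 ± 0.09, whereas the beta subunit gene atp5f1b, which carries the catalytic sites, fell by 0.24 on the log2 scale (SE 0.09, adjusted p = 0.0314).

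Along with atp5f1b, only cox7a2l and ndufab1 of the 98 nuclear genes tested fell in that fit. The gene cox7a2l, counted here by its symbol among the complex IV subunits, encodes a supercomplex assembly factor that joins complexes III and IV. Its transcript went from 245, 228, 231 and 203 TPM to 157, 165, 163 and 175 TPM (-0.45 ± 0.09, adjusted p = 0.000661). The transcript of ndufab1, the mitochondrial acyl carrier protein, went from 206, 219, 227 and 223 TPM to 168, 198, 173 and 166 TPM (-0.31 ± 0.10, adjusted p = 0.0142). Both changed without overlap between the stages. The atp5f1b libraries did overlap, at 547 to 675 TPM against 477 to 602 TPM, and only 1 of the 3 falls was called without MPNP 16 hpf replicate 1. With the replicate block 86 of 98 nuclear genes rose and 5 fell, beside 49.1% and 36.7% of all genes.

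Some nuclear changes were called only once the libraries were paired by number. That fit called 49.1% of all genes higher and 36.7% lower, so a call in it does not set a gene apart from most others. The accessory complex I gene ndufa6 held 105 and 91.6 TPM in the 8 hpf libraries numbered 1 and 195 and 182 TPM in those of 16 hpf, while the libraries numbered 2 held 35.2 and 31.1 TPM and then 77.6 and 98.9 TPM. Its change of 1.16 ± 0.58 had an adjusted p of 0.086, and 3.93e-07 with the block. The complex IV genes cox6c (0.80, adjusted p = 0.123, block 2.41e-08) and cox4i1 (0.58, adjusted p = 0.0583, block 7.08e-07) behaved likewise. A change that did not keep its sign was that of uqcrh, the hinge subunit of complex III, at 0.17 (adjusted p = 0.0438) and at -0.03 after TMM rescaling.

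Nuclear rises were called most often at the early steps. Of 98 nuclear genes 30 rose from 8 to 10 hpf and 39 from 10 to 12 hpf, where 21.5% and 24.5% of all genes rose. From 12 to 14 hpf 16 of 98 rose and from 14 to 16 hpf 4 of 98, beside 13.9% and 8.92%. In this fit the nuclear share was thus above that of all genes at the steps to 10 and 12 hpf. It was near that share at the step to 14 hpf and below it at the step to 16 hpf. The step to 10 hpf lowered 2 nuclear genes (15% of all genes fell), the step to 12 hpf lowered 1 (14.1%), and the later steps lowered none at an adjusted p under 0.05 (9.08% and 6.76%). With the replicate block 62, 70, 55 and 33 of 98 nuclear genes rose at the successive steps, beside 33%, 35.5%, 24% and 16.6% of all genes. In the block fit the nuclear share was thus above that of all genes at every step, the later ones included. The median nuclear change shrank from 0.25 and 0.34 at the early steps to 0.19 and 0.10 at the later ones. These medians are not set against the change of the median gene at each step. Of the mitochondrial genes 2 fell at the step to 10 hpf and none was called at the later steps.

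These step counts depend on single libraries. The count for the step to 10 hpf was 16 without MPNP 8 hpf replicate 2 and 19 without PNP 8 hpf replicate 2. That for the step to 14 hpf was 7 without MPNP 12 hpf replicate 2, 9 without MPNP 14 hpf replicate 2 or PNP 14 hpf replicate 2, and 10 without MPNP 14 hpf replicate 1 or PNP 12 hpf replicate 1. That for the step to 16 hpf was 1 or 2 without any 1 of the libraries of 14 or 16 hpf in either pool type, and 2 without MPNP 10 hpf replicate 1 or 2. With all libraries kept, TMM rescaling lowered the counts for the steps to 10 and 12 hpf to 15 and 24. Shares of all genes after that rescaling are not given for single steps. Whether the nuclear share stays above them at the early steps was therefore not tested.

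**Figure D3:**
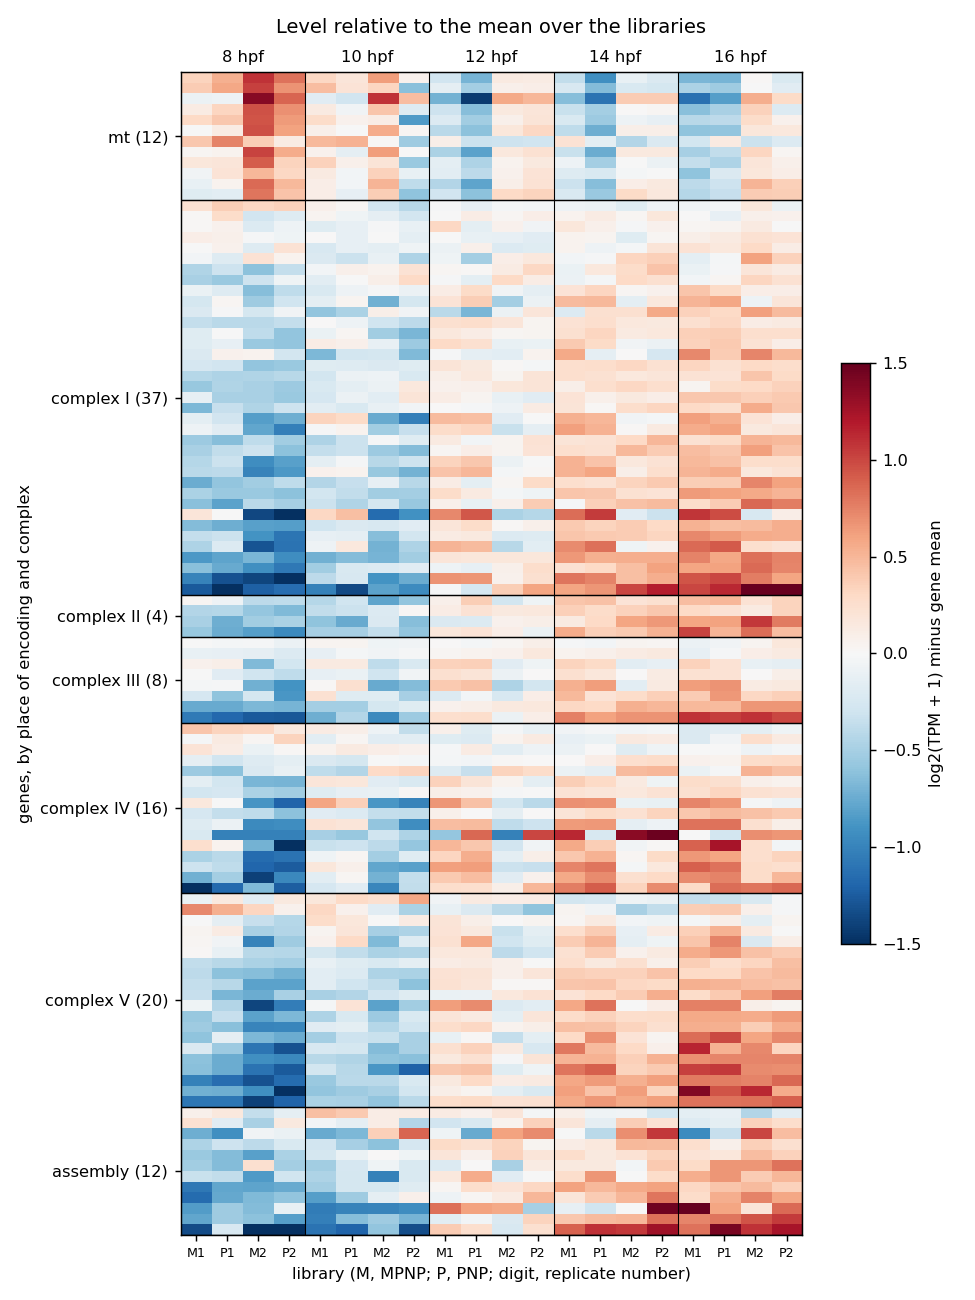
Level of 109 tested genes in the 20 libraries, as log2(TPM + 1) minus the gene's mean (colour scale, red higher and blue lower, capped at 1.5). Genes are grouped by place of encoding and complex, with the inhibitors among complex V, and sorted by their change; libraries are ordered by stage and number. The nuclear blocks turn from blue to red from 8 to 16 hpf, the mitochondrial block from red to blue, and within a stage the columns numbered 1 and 2 differ.

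Several subunits are encoded by more than 1 gene, and the mix of these copies shifted over the same hours. Reads from close copies can be split wrongly, so the shares are uncertain. They are stage means, and the mix of some pairs also differed between library numbers. On the log2 scale, number 2 minus number 1 was -0.53 for ndufab1b and -0.06 for ndufab1, and -0.64 for atp5if1a and -0.19 for atp5if1b. For uqcrc2 and uqcrc2a it was similar, at -0.18 and -0.12. The core protein gene uqcrc2 of complex III supplied 88.1% of the summed TPM of uqcrc2 and uqcrc2a at 8 hpf, and uqcrc2a the remaining 11.9%. By 16 hpf uqcrc2a supplied 34.6%. Its libraries held 15.2, 13.1, 13.9 and 13 TPM at 8 hpf and 70.7, 70.7, 68.4 and 66.4 TPM at 16 hpf (2.25 ± 0.09, adjusted p = 6.91e-11), while uqcrc2 moved by 0.35 ± 0.10.

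The acyl carrier protein showed an exchange: ndufab1 fell as described above and its relative ndufab1b rose by 0.89 ± 0.25, from 25% of the pair at 8 hpf to 43.1% at 16 hpf. By library the share of ndufab1b ran from 18.3% to 32% at 8 hpf and from 36.5% to 47.4% at 16 hpf. Among the genes for subunit c, atp5mc3b went from 54.8% to 72.3% of the family, atp5mc1 from 27.4% to 14.8% and atp5mc3 from 17.8% to 12.9%. Over these stages atp5mc3b rose by 1.08 ± 0.12, and atp5mc1 stood at -0.21 ± 0.19, which did not pass the test (with the block its adjusted p was 0.00137). For the ATPase inhibitory factor, which blocks the reverse action of ATP synthase, atp5if1b rose by 1.98 ± 0.15 and made up 8.04% of the pair at 8 hpf and 18.7% at 16 hpf, although atp5if1a stayed the more abundant copy. By library the share of atp5if1b ran from 5.9% to 11.8% at 8 hpf and from 13.2% to 25.4% at 16 hpf.

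Most other families had a single dominant copy. The cox7a family of complex IV did not: cox7a2 (ENSDARG00000053217) held 66.3% at 8 hpf and 64.9% at 16 hpf, and cox7a2 (ENSDARG00000110700) held 33.5% and 34.8%. For cytochrome c oxidase subunit 4, cox4i1 held at least 98.2% in every library and cox4i2, known in mammals as the copy tied to low oxygen, rose from 0.314% to 1.22% of the family, at 1.27 and 7.31 TPM. The subunit 5A genes cox5aa and cox5a held 78.5% and 21.5% at 8 hpf and 75.8% and 24.2% at 16 hpf. The genes cox6b2, cox8a and ndufa4 held over 99% of their families in each library, leaving under 1% to cox6b1, cox8b and ndufa4b.

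**Figure D4:**
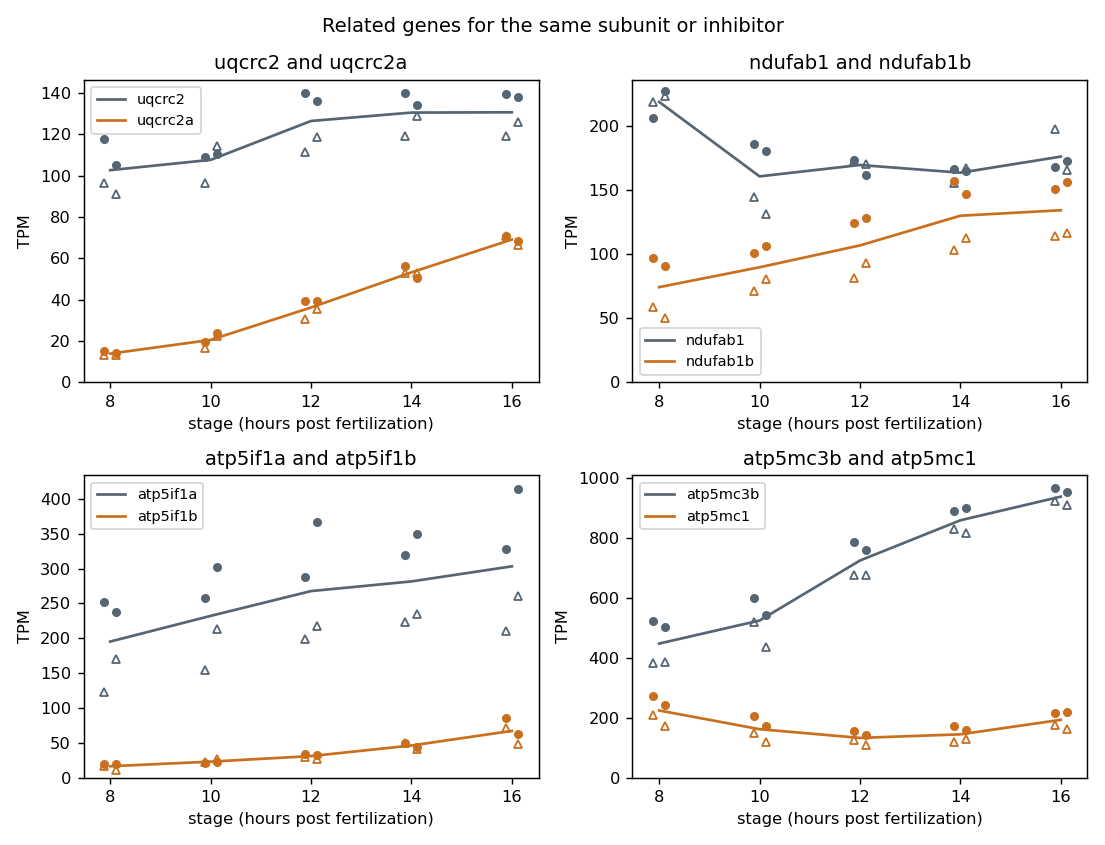
TPM of 4 pairs of related genes by stage in hours post fertilization: uqcrc2 and uqcrc2a, ndufab1 and ndufab1b, atp5if1a and atp5if1b, atp5mc3b and atp5mc1. Symbols are libraries (filled circle, number 1; open triangle, number 2; MPNP drawn left of PNP) and lines join stage means. The lower copy rises in the first 3 pairs, and atp5mc1 moves away from atp5mc3b.

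Genes that serve the same machinery, from lists chosen with earlier results known, moved mostly with the nuclear subunits between 8 and 16 hpf. Of 56 assembly and electron carrier genes outside the rule 38 rose and 6 fell (31 and 10 after TMM rescaling), led upward by tmem126a (2.80 ± 0.19) and coa7 (2.64 ± 0.18), which aid the assembly of complexes I and IV. Of 75 mitochondrial ribosome genes 45 rose and 5 fell (median 0.48). After rescaling 35 of these rose and 13 fell, and with the replicate block 53 rose and 11 fell. Of 20 citric acid cycle and pyruvate dehydrogenase genes 15 rose and 3 fell (median 0.74; of the 19 genes tested after rescaling, 12 and 5), with ogdh at 1.93 ± 0.17 and suclg1 at 1.78 ± 0.11. Glycolysis did not go the other way: 12 of 17 of its genes rose and 2 fell (median 0.93). Counts without rescaling or block are to be read beside the 44.4% of all genes that rose and the 31.6% that fell. Those after rescaling stand beside 39.3% and 38.3%, and those with the replicate block beside 49.1% and 36.7%.

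Among 26 genes for the upkeep of mitochondrial DNA and the handling of its transcripts, 15 rose and 5 fell (median 0.44; 13 and 7 after rescaling). The RNA-binding gene fastkd2 rose by 2.46 ± 0.14 and the nuclease gene mgme1 by 1.27 ± 0.14. The tRNA processing gene hsd17b10 and the mitochondrial RNA helicase gene supv3l1 fell by 1.51 ± 0.11 and 1.43 ± 0.13 on the log2 scale. The regulators of mitochondrial biogenesis differed from the rest in direction, with 3 of 12 higher and 7 lower (median -0.66). The transcription factor gene gabpa went from 222 ± 19.3 to 76.6 ± 5.97 TPM (SD, n = 4; -1.52 ± 0.07) and a yy1 gene from 189 ± 6.83 to 61 ± 1.93 TPM (-1.61 ± 0.07), whereas the coactivator genes ppargc1a and ppargc1b rose from 0.115 and 0.487 TPM to 2.81 and 4.91 TPM.

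Between MPNP and PNP pools, the comparison for which the series was made, no oxidative phosphorylation gene was called. In the average over the 5 stages 0 of 111 passed limma's test at an adjusted p under 0.05, beside 5.29% of all genes, and 4 had an unadjusted p under 0.05. At 8, 10, 12, 14 and 16 hpf 0 of 111 passed, beside 0.311%, 0.203%, 0.291%, 0.684% and 1.39% of all genes, with 2, 3, 2, 1 and 2 at an unadjusted p under 0.05. The change of the pool difference between 8 and 16 hpf was called for 0 of 111 (1 at an unadjusted p under 0.05), beside 0.223%. The nuclear genes had a median difference of -0.01, and the median of all genes was -0.03.

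Leaving aside mt-atp8, all 12 mitochondrially encoded genes had a positive average difference, with a median of 0.21 (SE 0.16 for mt-co1, at 0.21). None was called, and they share their libraries and their source, so the 12 signs are not independent of each other. The sign was carried unevenly: at 8, 10, 12, 14 and 16 hpf their median was 0.10, 0.41, 0.14, 0.20 and 0.06. The ratio of mitochondrial to nuclear transcripts was higher in MPNP in 7 of 10 pairs of the same stage and number, by 0.20 on the log2 scale on average (SD of the 10 paired differences 0.26, range -0.20 to 0.70). The pooled SD within groups, 0.49, also holds the difference between numbers. In libraries numbered 1 alone their median was 0.15 with 10 of 12 positive, and in those numbered 2 alone it was 0.27 with 12 of 12 positive. For mt-nd3 and mt-nd4l the sign did not hold in the libraries numbered 1 (-0.04 and -0.002).

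Pairing the pools by number gave calls at about the rate of all genes. Same-numbered libraries of a stage deviated together, and with the number as a block 17 of 111 genes were called in the average, or 15.3%, beside 17.4% of all genes. The calls with the block given below are to be read against that rate. Counts of pairs given for single genes below have no share of all genes beside them, and the pairing itself comes from these data. Of the nuclear genes 6 were higher and 10 lower in MPNP, and mt-nd2 was the only mitochondrial gene called (0.25, block adjusted p = 0.0391). By stage the block called 2, 3, 1, 0 and 2 genes, where 3.92%, 3.01%, 1.38%, 1.78% and 3.49% of all genes were called. None of the 17 differences in the average exceeded 0.30 in size.

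The smallest p without the block was that of ndufaf3, an assembly factor of complex I. It was lower in MPNP in 9 of 10 pairs, at 23.8 and 16.2 against 23 and 24.2 TPM at 8 hpf and at 44.4 and 39.5 against 48.4 and 42.9 TPM at 16 hpf (average -0.30 ± 0.11, adjusted p = 0.146, block 0.0211). The complex II membrane anchor gene sdhc was higher in MPNP in 8 of 10 pairs (0.17 ± 0.06, adjusted p = 0.149, block 0.0257). Its 16 hpf libraries stood apart, at 129 and 114 TPM in MPNP and 90.4 and 87.4 TPM in PNP (0.44 ± 0.13, adjusted p = 0.233, block 0.0353). The beta subunit gene atp5f1b was lower in 9 of 10 pairs (-0.15 ± 0.06, adjusted p = 0.21, block 0.0116), and its stalk partner atp5pf was at -0.14 (block 0.0317).

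The inhibitor genes did not pass the test. In the average atp5if1b stood at 0.20 ± 0.10 (adjusted p = 0.339, block 0.0335) and atp5if1a at -0.24 ± 0.19 (adjusted p = 0.626, block 0.0133). The complex I gene ndufa2 was lower in MPNP in 10 of 10 pairs (-0.24 ± 0.14, block adjusted p = 0.00542), and cox6c was higher in 10 of 10 pairs (0.13 ± 0.29, block adjusted p = 0.00501). The difference of cox6c was small beside that between library numbers: at 16 hpf it held 626 and 591 TPM in the MPNP and PNP libraries numbered 1 and 372 and 356 TPM in those numbered 2. Also among the smallest p without the block were ndufv2, which carries an iron-sulphur centre (-0.13, adjusted p = 0.377, block 0.023), and ndufaf5, an assembly factor (-0.15 ± 0.10).

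Outside the rule, a few genes of the related lists were called between the pools, to be read beside the 5.29% of all genes called. Of 56 assembly and electron carrier genes 1 was lower and 1 higher in MPNP. The coenzyme Q biosynthesis gene coq9 was lower in MPNP (-0.52 ± 0.09, adjusted p = 0.00439) and uqcc1, an assembly factor of complex III, was higher (0.24 ± 0.06, adjusted p = 0.0318). Of 17 glycolytic genes 1 was higher in MPNP, aldoc (0.67 ± 0.10, adjusted p = 0.00146), and 1 lower, eno3 (-0.42 ± 0.07, adjusted p = 0.00298). Of 9 p53-linked mitochondrial genes 2 were higher (4 with the block): bbc3 itself, the mutated puma locus (1.5 ± 0.16, adjusted p = 6.97e-05), and bax, which permeabilises the outer mitochondrial membrane (0.56 ± 0.12, adjusted p = 0.0195). No gene of the lists of mitochondrial ribosome, citric acid cycle, mitochondrial DNA upkeep or biogenesis regulators was called in that fit. With the block 12 of 75, 4 of 20, 3 of 26 and 2 of 12 were, beside the 17.4% of all genes. Markers of stage and tissue also differed between the pools: of 24 tested 3 were lower in MPNP and none higher (median -0.13). With the block 11 of 24 were lower, beside the 17.4% of all genes called in either direction. The 3 were pax6 (ENSDARG00000103379, -0.43 ± 0.10), a gene of the eye and neural tube, myl10, a muscle myosin light chain gene (-0.33 ± 0.08), and gata1a, a gene of red blood cell precursors (-0.26 ± 0.07). Their part in the differences above was not tested.

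The number of a library marked a larger difference in these genes than the pool type. The labels do not say what the number stands for, but relative to number 1, the second set of libraries had 40.4% of all genes higher and 14.1% lower. The nuclear subunit sum was higher in the library numbered 1 in every group: at 8 hpf it was 1.31% and 1.28% in the libraries numbered 1 and 1.05% and 1.09% in those numbered 2. The mitochondrial sum went the opposite way at 8 hpf, with 1.98% and 2.24% against 3.35% and 2.69%. It was higher under number 2 in every group except PNP at 10 hpf, which held 1.83% under number 1 and 1.48% under number 2. The ratio of mitochondrial to nuclear transcripts was higher in the library numbered 2 in 9 of 10 groups, by 0.61 on the log2 scale on average, and PNP at 10 hpf was the exception.

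Of the mitochondrial genes 9 of 13 were higher and 1 was lower in the libraries numbered 2 (median of the 12 other than mt-atp8 0.47, all genes 0.10). The 9 include mt-atp8, listed at 0 in all 10 libraries numbered 1 and in 6 of 10 numbered 2. The largest of the other differences was that of mt-nd6, the subunit encoded on the strand opposite to the rest. It was higher in the library numbered 2 in all 10 groups, at 395 and 398 against 1078 and 766 TPM at 8 hpf and at 192 and 236 against 613 and 511 TPM at 16 hpf (1.29 ± 0.09, adjusted p = 1.1e-07). The gene that went the other way was mt-nd4l, at -0.37 ± 0.09 (adjusted p = 0.00388), although mt-nd4, whose span it overlaps, stood at 0.63 ± 0.08.

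**Figure D5:**
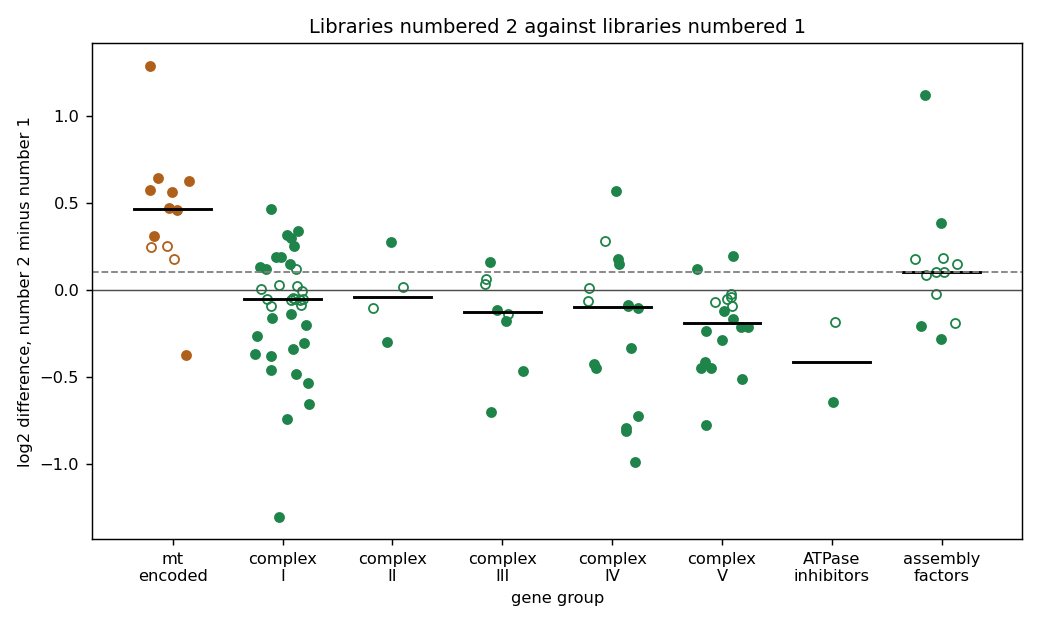
Log2 difference between libraries numbered 2 and libraries numbered 1 within groups, for each tested gene except mt-atp8 and ndufb1, by place of encoding and complex. Filled circles passed the test at an adjusted p under 0.05, short bars are group medians, and the dashed line is the median over all genes (0.10). Most mitochondrial genes lie above the line, and nuclear genes range from -1.30 (ndufa6) to 1.12 (sdhaf4).

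Nuclear genes split by number, with 19 of 98 higher and 42 lower under number 2 (median -0.08). This split depends on the scaling: after TMM rescaling, which moved the median gene from 0.10 to -0.01, 7 nuclear genes were higher and 65 lower, beside 24.6% higher and 27.5% lower among all genes. The gene ndufa6 was lower in the library numbered 2 in all 10 groups (-1.30 ± 0.06, adjusted p = 3.37e-09; -1.45 after rescaling). The complex IV genes cox6c (-0.99), cox6a1 (ENSDARG00000022438, -0.81) and cox7a2 (ENSDARG00000053217, -0.79) were also lower in all 10 groups. At 16 hpf cox6a1 held 723 and 680 TPM in the libraries numbered 1 and 470 and 462 TPM in those numbered 2.

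Others were higher in the libraries numbered 2 in all 10 groups. The complex II assembly factor gene sdhaf4 was higher by 1.12 ± 0.12 (adjusted p = 3.74e-06), with 6.02 and 9.6 against 26 and 17.6 TPM at 16 hpf. The complex IV gene cox4i1 differed by 0.57 ± 0.04, ndufb10 by 0.47 ± 0.07 and the assembly factor gene ndufaf2 by 0.39. These 4 differences kept their direction after rescaling. By complex, 3 of 16 subunit genes of complex IV were higher and 9 lower. The counts were 10 and 14 of 38 in complex I, and 2 and 11 of 18 in complex V. They stand beside 40.4% of all genes higher and 14.1% lower. After TMM rescaling these counts were 1 and 11, 3 and 24, and 0 and 16, beside 24.6% and 27.5% of all genes. The complex V genes called higher, atp5md and atp5f1b, were then no longer called (0.05 and -0.02). Counts for complexes II and III are not given.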

How the data were processed

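The deposited table held TPM values for 32057 gene IDs in 20 libraries, as the authors made them, with the same total in every library within rounding. The submitters' processing notes name STAR 2.7.3a, HTSeq 0.12.3, RSEM 1.3.3, DESeq2 1.42.1, R 4.3.3 and the build GRCz11. Which of these gave the table, no source used here says. Depth is unknown, since TPM keeps none. A gene name table matched 28988 IDs to symbols. The 4 unnamed columns without values were not used.

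Values were analysed as log2(TPM + 1), which understates changes at low levels. The 14774 genes whose mean TPM reached 1 were fitted with limma 3.58.1 (R 4.3.3), 1 mean per group, empirical Bayes with trend, 10 residual degrees of freedom; p-values are 2-sided, Benjamini-Hochberg adjusted over the whole table, and 0.05 is the threshold. The fit was checked on simulated data with independent noise and no difference between library numbers, so the check does not cover that difference. Nothing in the labels says that replicate libraries are of different crosses; p-values then reflect only how far these libraries spread, which may be technical. Across genes, deviations of same-numbered MPNP and PNP libraries from their group means correlated at 0.485, 0.586, 0.615, 0.539 and 0.601 at the 5 stages, so the numbers were taken to pair libraries and a block of number within stage (5 residual degrees of freedom) was fitted too. The pairing comes from the data, not the labels.

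The members and lists were chosen with earlier results of these data known. The rule for naming took the mitochondrial members, the 2 most abundant nuclear members per complex and the 8 with the smallest p between pools. It also took the 6 (development) or 4 (number) largest called changes in each direction, related copies, and up to 3 called list genes. Of the abundant members, ndufs5, ndufb8, sdha and uqcrb are not described above. Further genes were named for their role after their values were seen. The planned permutation tests of the mitochondrial to nuclear ratio are not given, and no promoter sequences were analysed here. Alternatives were another pseudocount (0.1), other filters (none, or a mean TPM of at least 5), no trend, TMM scaling, removal of mitochondrial rows, subsets of libraries and leaving out each library.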

Additional observations from a re-analysis of the deposited data

How the results depend on the processing

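Depth is unknown, so no counting limit can be set. With the replicate block 17 members were called between pools in the average and 2, 3, 1 and 2 at 8, 10, 12 and 16 hpf; nuclear rises by step numbered 62, 70, 55 and 33, nuclear falls from 8 to 16 hpf 5 and mitochondrial falls 10; and 2574 genes of all were called in the pool average. Falls among mitochondrial ribosome genes from 8 to 16 hpf went from 5 to 11. Under TMM scaling 15 and 24 nuclear genes rose to 10 and to 12 hpf, uqcrh changed sign from 8 to 16 hpf (-0.0343), and by number 65 nuclear genes were lower and 7 higher, and 4062 of all genes lower and 3630 higher. In libraries numbered 1 alone 7 nuclear and 11 mitochondrial genes fell from 8 to 16 hpf and 146 genes of all were called between pools; in those numbered 2 alone 1 member and 282 of all genes. A mean TPM of at least 5 left 493 genes called between pools and 3998 higher at 16 hpf, since fewer genes were tested. A pseudocount of 0.1 left 1 nuclear rise to 16 hpf. By number, 11 nuclear genes were higher in MPNP libraries alone, and in PNP libraries alone 3920 of all genes were higher and 1202 lower. Except where the number of genes or libraries fell by construction, the cause was not tested. No share of all genes stands beside the member counts from a pseudocount of 0.1 or from single steps under TMM scaling. The same holds for falls from 8 to 16 hpf in libraries numbered 1 alone, for the MPNP libraries alone and for the counts without 1 library below. Such counts do not show whether these genes moved more than all genes.

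Leaving out 1 library at a time gave 1 to 3 nuclear falls and 2 to 8 mitochondrial falls from 8 to 16 hpf, and 16 to 33, 30 to 40, 7 to 15 and 1 to 5 nuclear rises at the successive steps. It left 68 to 78 nuclear rises from 8 to 16 hpf and 0 members called between pools. The ratio of mitochondrial to nuclear transcripts ranged from -1.68 to -1.14 between stages, from 0.10 to 0.31 between pools and from 0.56 to 0.69 between numbers. The sign of 3 uncalled differences turned: mt-nd1 from 8 to 16 hpf (between -0.474 and 0.0227, positive without MPNP 8 hpf replicate 2), mt-nd3 between pools (between -0.0454 and 0.110, negative without MPNP 16 hpf replicate 2, MPNP 8 hpf replicate 2 or PNP 12 hpf replicate 1, and -0.0435 in libraries numbered 1), and mt-nd4l between pools (between -0.0618 and 0.1504, negative without MPNP 10 hpf or 14 hpf replicate 1 or PNP 8 hpf or 10 hpf replicate 2, and -0.0016 in libraries numbered 1). Between pools the ratio within pairs averaged 0.20 (SD 0.26, n = 10 pairs), with no test.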
